A study of Rattus norvegicus with 32 samples.

Results

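The genes described here encode the antioxidant and redox enzymes of the cell, chosen by gene symbol: glutathione transferases, glutathione peroxidases, peroxiredoxins, superoxide dismutases, thioredoxins with their reductases and relatives, glutaredoxins, the enzymes that make and reduce glutathione, catalase, quinone and haem enzymes and metallothionein. The symbols matched 70 of 22523 beadchip probes, of which 55 probes for 52 genes had a detection p under 0.05 on 4 or more of the 9 arrays at 1 h and were analysed. RNA came from the nucleus accumbens, the ventral part of the striatum, of male Sprague-Dawley rats injected once with saline or with methamphetamine (METH) at 20 mg/kg. The rats were killed 1 h later, and 5 METH and 4 saline arrays were available at that time. The labels state no age. They give 5 rats per group where the saline group held 4 arrays and do not tie each array to its own rat, so p-values here reflect variation among arrays, part of which may be technical. The series also holds 23 arrays of other times, whose rows do not match the probe IDs (rank correlation of mean intensity with the 1 h arrays -0.0046) and which were not used here.

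Reactive oxygen species are handled in steps. Superoxide dismutases turn superoxide into hydrogen peroxide, which catalase, the glutathione peroxidases and the peroxiredoxins reduce to water. These peroxidases rely on glutathione and on thioredoxin, which glutathione reductase and the thioredoxin reductases return to the reduced form, while glutathione transferases couple glutathione to reactive compounds. METH raises dopamine, whose oxidation yields quinones and hydrogen peroxide, and several of these genes are known targets of the transcription factor Nrf2, which binds antioxidant response elements.

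The promoters of 3 of these genes are shown as examples with and without the letters of an antioxidant response element. No link between these letters and the values after METH was tested. Gclc and Gclm encode the catalytic and the modifier subunit of glutamate-cysteine ligase, the first enzyme of glutathione synthesis, and their estimates lay apart. Gstp1, the pi class glutathione transferase, lay below every saline array on METH arrays 4 and 5 with both probes analysed. Each is the stretch of 250 bases before the RefSeq transcript start in GRCr8, read along the gene from 5′ to 3′, and capitals mark the core antioxidant response element TGACNNNGC on either strand. The Gclc stretch lies at chr8:87510226-87510475 on the plus strand, that of Gclm at chr2:213031885-213032134 on the plus strand and that of Gstp1 at chr1:210769706-210769955 on the minus strand.
Gclc: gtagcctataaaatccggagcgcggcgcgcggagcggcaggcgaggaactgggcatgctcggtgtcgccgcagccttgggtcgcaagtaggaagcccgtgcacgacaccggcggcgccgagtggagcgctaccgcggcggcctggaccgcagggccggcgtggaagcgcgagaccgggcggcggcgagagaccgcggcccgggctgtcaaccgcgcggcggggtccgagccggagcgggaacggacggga
Gclm: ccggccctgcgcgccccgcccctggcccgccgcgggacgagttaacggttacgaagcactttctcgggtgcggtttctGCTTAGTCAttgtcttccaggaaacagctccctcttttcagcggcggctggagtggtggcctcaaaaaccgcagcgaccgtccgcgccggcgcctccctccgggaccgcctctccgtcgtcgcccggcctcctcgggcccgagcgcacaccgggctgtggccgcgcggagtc
Gstp1: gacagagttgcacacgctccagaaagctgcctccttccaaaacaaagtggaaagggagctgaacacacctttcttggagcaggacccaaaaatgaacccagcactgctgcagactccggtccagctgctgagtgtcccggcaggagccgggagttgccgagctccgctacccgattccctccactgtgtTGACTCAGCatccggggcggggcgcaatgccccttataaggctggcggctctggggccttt
The Gclm match lies 172 to 164 bases before the start, on the opposite strand, and the Gstp1 match 61 to 53 bases before it. The letters do not occur in the Gclc stretch, and bases further upstream of any gene were not searched. RefSeq windows were matched for 43 of the 52 genes, and 9 of their 51 windows (17.6%) hold the motif, as do 10.1% of all 33469 windows of this length. A match describes letters and not a binding site.

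No redox probe passed an adjusted p of 0.05 at 1 h after METH. The count was 0 of 55 up and 0 of 55 down (limma with Benjamini-Hochberg adjustment over 9987 probes, smallest adjusted p = 0.111), where 0.521% of all probes tested passed. At an unadjusted p under 0.05 there were 3 redox probes, 1 higher and 2 lower, which is 5.45% of them against 11% of all probes. Of the 55 probes, 23 had an estimate above 0 and 32 below (58.2% below, against 54.3% of all probes tested). The median log2 fold change was -0.10 beside -0.02 over all probes tested. In unscaled values, where the median of all probes was 0.23, 43 lay above 0 and 12 below, while 23 lay above that median and 32 below it. Directions given below for a class of enzymes are therefore relative to all probes on the array. A difference of 1.5-fold or more was estimated for 2 probes, 3.64% against 3.53% of all probes. The 95% intervals show how far this design reaches. Their median distance from the estimate to either end was 0.39 on the log2 scale, and for 50 of the 55 probes the interval did not reach a 2-fold change in either direction. The 5 whose interval did were Gclc and Hmox1 on the upper side and Mgst1, Gstm5 and 1 Gstp1 probe on the lower.

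**Figure D1:**
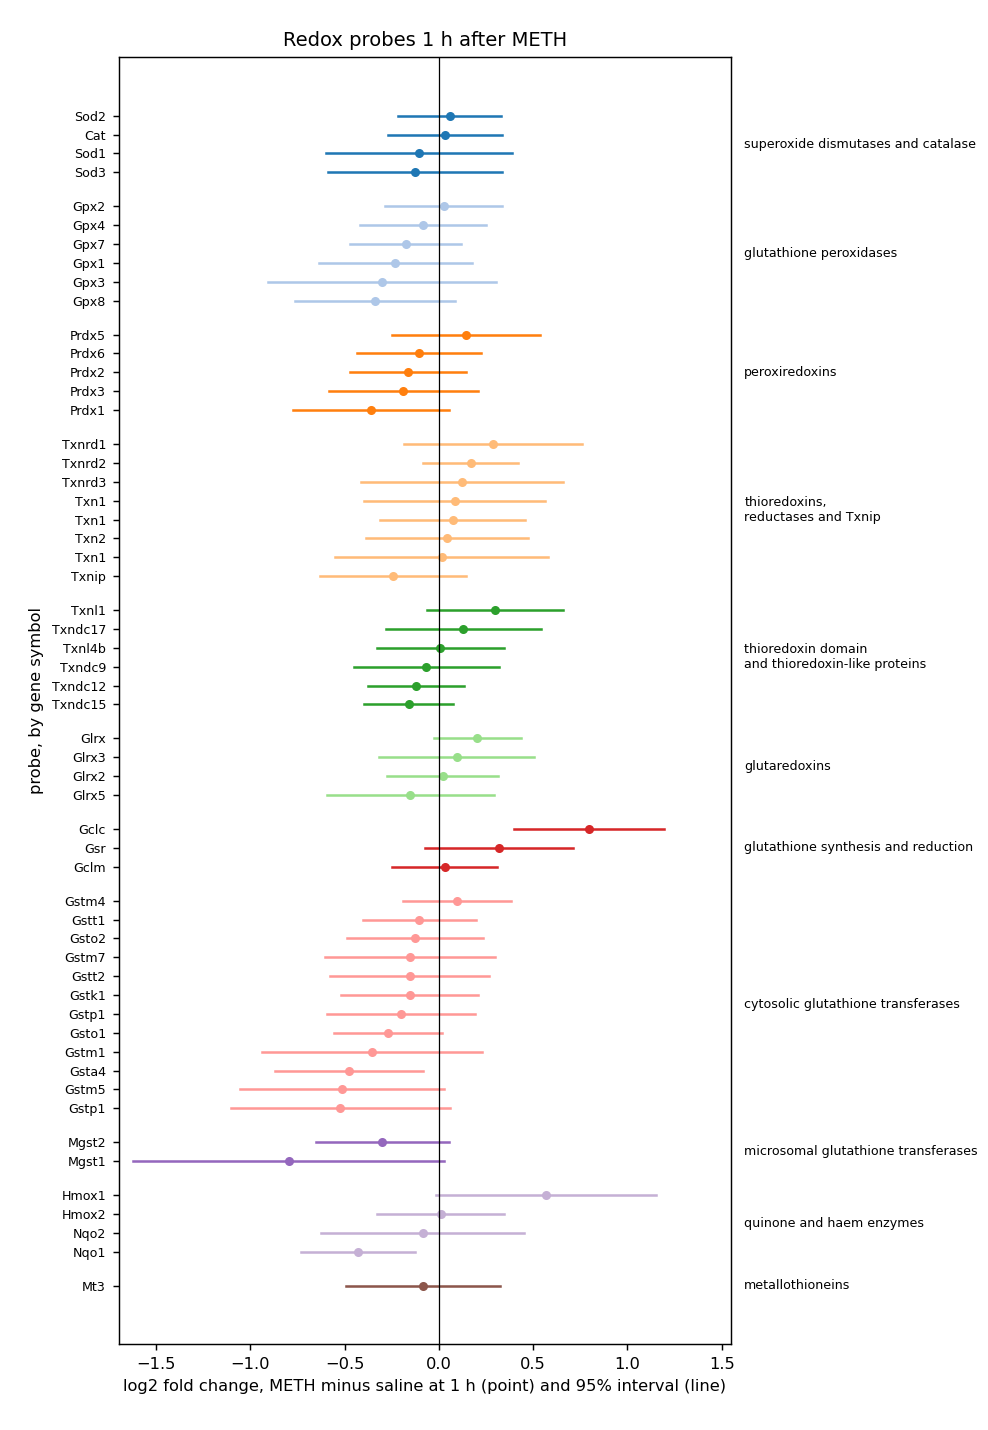
Log2 fold change of METH against saline at 1 h for the 55 redox probes (points) with 95% intervals (lines), one row per probe and one colour per class of enzyme. Gclc has the highest estimate (0.79) and Mgst1 the lowest (-0.80), and most intervals include 0.

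Glutathione synthesis had the member with the smallest p. Gclc, the catalytic subunit, lay at normalized log2 intensities of 9.16, 8.58, 9.09 and 8.45 with saline (arrays 1 to 4) and at 9.64, 9.65, 9.19, 9.64 and 9.95 on METH arrays 1 to 5. All 5 METH arrays lay above all 4 saline arrays, although METH array 3 exceeded saline array 1 by little. The estimate was 1.73-fold higher with METH (log2 fold change 0.79 ± 0.18 SE, 95% interval 0.40 to 1.19, n = 5 and 4). It did not pass over all probes (limma, adjusted p = 0.111), and it ranked 81 by p among the 9987 probes. The log2 fold change was 0.77 on slide 1 alone, 0.83 on slide 2 alone and 0.80 in the fit with slide as a block, where 0.621% of all probes passed (0.481% on slide 1 alone and 0.16% on slide 2 alone). In unscaled values Gclc passed (limma, adjusted p = 0.019, log2 fold change 1.08), where 2.25% of all probes passed and the median of all probes was itself 0.23, so that Gclc stood 0.85 above it.

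The other 2 genes of this class had smaller estimates. Gclm, the modifier subunit, lay at 7.13, 7.31, 7.56 and 7.30 with saline and at 7.50, 7.43, 7.24, 7.36 and 7.24 on the METH arrays. Its groups overlapped, with a log2 fold change of 0.03 ± 0.13 SE and an interval of -0.25 to 0.31. The difference between the 2 subunits was not tested. Gsr, glutathione reductase, lay at 6.70, 6.59, 6.63 and 7.23 with saline and at 6.88, 6.78, 7.34, 7.12 and 7.42 on the METH arrays. Saline array 4 lay among the higher METH values, and the log2 fold change was 0.32 ± 0.18 SE (limma, adjusted p = 0.555).

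Among the quinone and haem enzymes, estimates went in both directions and none of 4 passed. Nqo1, which reduces quinones in the cytosol, had the second smallest p. It lay at 8.41, 8.44, 8.38 and 8.50 with saline and at 8.23, 8.24, 8.02, 7.86 and 7.65 on the METH arrays. All 5 METH arrays lay below all 4 saline arrays, which differed little among themselves. The log2 fold change was -0.43 ± 0.14 SE (interval -0.73 to -0.13, limma, adjusted p = 0.26). It was -0.19 on slide 1 alone, -0.59 on slide 2 alone and -0.41 with slide as a block, and in unscaled values -0.19 where the median of all probes was 0.23.

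Hmox1, the inducible haem oxygenase, lay at 5.56, 6.39, 6.21 and 6.16 with saline and at 6.88, 7.45, 6.70, 6.15 and 6.07 on the METH arrays. The first 3 METH arrays lay above every saline array, and METH arrays 4 and 5 lay within the saline range. The log2 fold change was 0.57 ± 0.27 SE (interval -0.02 to 1.15, limma, adjusted p = 0.47), with 1.18 on slide 1 alone, 0.12 on slide 2 alone and 0.60 with slide as a block. Hmox2, the constitutive form, lay at 8.32, 8.07, 8.23 and 8.03 with saline and at 8.01, 8.32, 8.57, 8.16 and 7.80 with METH. The METH arrays lay on both sides of the saline range, with a log2 fold change of 0.01 ± 0.16 SE. Nqo2 also overlapped between the groups and had -0.09 ± 0.25 SE. Nqo2 was above background on 7 of 9 arrays.

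Glutathione transferases made up the largest class, and their estimates lay mostly below 0. Of 12 cytosolic transferase probes for 11 genes, 11 had an estimate below 0 and 1 above, with a median of -0.18 (range -0.52 to 0.10), and none passed. In unscaled values 7 were above 0 and 5 below, with 11 of 12 below the median of all probes. Without METH array 5, 10 were below 0 and the median was -0.15. Gsta4, an alpha class enzyme that conjugates lipid aldehydes, had the third smallest p. It lay at 5.58, 5.61, 6.11 and 5.19 with saline and at 5.04, 5.47, 5.22, 4.86 and 5.14 on the METH arrays. The groups overlapped through saline array 4, and the probe was dim, above background on 3 of 4 saline and 2 of 5 METH arrays, so the size of its log2 fold change of -0.48 ± 0.18 SE is uncertain (limma, adjusted p = 0.352).

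The 2 probes of Gstp1 passing the detection filter correlated at 0.712 over the 9 arrays. The one with the lower p lay at 10.28, 10.38, 10.47 and 9.78 with saline and at 9.90, 10.22, 9.99, 9.73 and 8.68 on the METH arrays. METH array 5 lay far below the rest, the groups overlapped, and the log2 fold change was -0.52 ± 0.27 SE, or -0.27 without that array. The other probe lay at 7.46, 7.43, 7.88 and 7.18 with saline and at 7.23, 7.62, 7.54, 6.95 and 7.08 with METH. METH arrays 4 and 5 lay below every saline array and the others within their range, which gave -0.20 ± 0.18 SE, or -0.15 without METH array 5. Gstm5, a mu class enzyme, lay at 9.92, 9.89, 10.17 and 9.35 with saline and at 9.83, 9.80, 9.34, 9.05 and 8.59 on the METH arrays. Saline array 4 overlapped the METH values, and the log2 fold change was -0.51 ± 0.25 SE (-0.33 without METH array 5). Its paralog Gstm1 lay at 10.02, 10.16, 10.34 and 9.48 with saline and at 9.78, 10.25, 10.04, 9.37 and 8.80 with METH. METH array 5 lay well below the other 8 arrays. Its log2 fold change of -0.36 ± 0.27 SE was -0.14 without METH array 5, -0.08 on slide 1 alone and -0.51 on slide 2 alone. Gsto1, an omega class enzyme, lay at 10.79, 10.87, 10.98 and 10.77 with saline and at 10.56, 10.63, 10.61, 10.87 and 10.23 with METH. All METH arrays but array 4 lay below every saline array, with a log2 fold change of -0.27 ± 0.13 SE (limma, adjusted p = 0.488). Mu class transcripts are similar in sequence, and how far their probes share signal was not tested.

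The 2 microsomal transferases, membrane enzymes of glutathione metabolism, both had estimates below 0, also in unscaled values. Mgst1 lay at 7.96, 7.61, 7.74 and 7.02 with saline and at 6.46, 8.25, 6.76, 6.61 and 5.85 on the METH arrays. The METH arrays other than array 2 lay below every saline array, while METH array 2 was the highest of all 9. The log2 fold change was -0.80 ± 0.38 SE (interval -1.62 to 0.03, limma, adjusted p = 0.471), with -0.43 on slide 1 alone, -0.98 on slide 2 alone and -0.73 with slide as a block. Without METH array 2 it was -1.16 ± 0.23 SE and passed (limma, adjusted p = 0.0235), in a fit where 2.5% of all probes passed. Its spread within groups, an SD of 0.72, was the highest of the 55 probes. Otx2, a choroid plexus gene, likewise had its highest METH value on array 2. From the saline mean, Mgst1 stood at -1.13, 0.67, -0.82, -0.97 and -1.73 on METH arrays 1 to 5 and Otx2 at -0.68, 1.01, -0.60, -0.57 and -0.79. Otx2 was above background on 3 saline arrays and 1 METH array, so the order of its METH values not above background is uncertain. Of the 8 choroid plexus genes, all on the array, 5 were never above background, and Slc4a5 was the only other gene to pass the detection filter, with 0.11, 0.25, -0.11, -0.01 and 0.12. The summed intensity of the 8 genes was 42.4 to 78.8 with saline and 15.4 to 193.9 with METH, with 49.3 on METH array 5. METH array 2 also stood apart for genes of other lists. From the saline mean, the striatal gene Isl1 stood at -0.63, 0.08, -0.96, -0.98 and -1.54 on METH arrays 1 to 5. The striatal gene Arpp21 (0.58, -0.04, 0.89, 0.65 and 1.06) and the cortical gene Neurod2 (0.50, -0.12, 0.90, 0.90 and 0.84) went the other way. The part of any of these lists in the Mgst1 values was not tested. Mgst2 lay at 5.96, 5.44, 5.79 and 5.34 with saline and at 5.24, 5.65, 5.43, 5.30 and 5.04 with METH. The groups overlapped, and the probe was above background on 4 of 4 saline and 3 of 5 METH arrays. Its log2 fold change was -0.30 ± 0.16 SE (limma, adjusted p = 0.536), -0.51 with no further background correction and -0.19 without saline array 1.

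**Figure D2:**
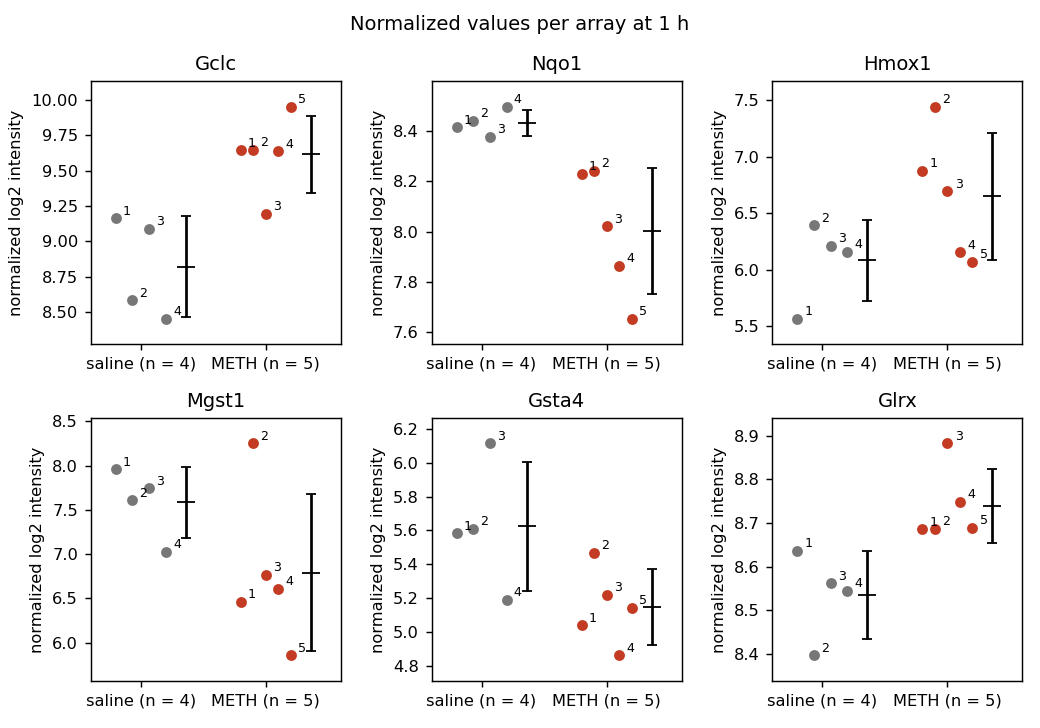
Normalized log2 intensity on each of the 4 saline (grey) and 5 METH (red) arrays for 6 genes, with array numbers beside the points and the mean ± SD beside each group. The axes do not start at 0. The groups do not overlap for Gclc, Nqo1 and Glrx, and METH array 2 stands apart from the other METH arrays for Mgst1.

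The groups did not overlap for 3 of the 55 probes (5.45%), where this held for 4.26% of all probes. They were Gclc and Glrx with METH higher (1.96% of all probes) and Nqo1 with METH lower (2.29% of all probes). Glrx, a cytosolic glutaredoxin that removes glutathione from protein thiols, lay at 8.64, 8.40, 8.56 and 8.54 with saline and at 8.68, 8.69, 8.88, 8.75 and 8.69 on the METH arrays. The gap between the groups was small, and the log2 fold change was 0.20 ± 0.11 SE (limma, adjusted p = 0.52). The other glutaredoxins, Glrx2, Glrx3 and Glrx5, which act in mitochondria or in iron-sulphur protein assembly, had estimates from -0.15 to 0.09.

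The superoxide dismutases and catalase gave estimates close to 0. Sod1, the cytosolic copper-zinc enzyme, lay at 11.90, 11.85, 11.68 and 11.26 with saline and at 11.62, 12.11, 11.84, 11.43 and 10.85 on the METH arrays. The groups overlapped, and the log2 fold change was -0.10 ± 0.23 SE. Sod2, the mitochondrial manganese enzyme, lay at 9.13, 9.05, 9.02 and 8.99 with saline and at 8.86, 9.34, 9.11, 8.93 and 9.28 with METH. The METH arrays lay on both sides of the saline range, with a log2 fold change of 0.06 ± 0.13 SE. Cat, the peroxisomal catalase, lay at 7.74, 7.26, 7.41 and 7.33 with saline and at 7.63, 7.62, 7.42, 7.37 and 7.28 with METH. All METH arrays lay within the saline range, with a log2 fold change of 0.03 ± 0.14 SE and an interval of -0.27 to 0.33. Sod3, the extracellular form, had -0.13 ± 0.21 SE.

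Of 6 glutathione peroxidase probes 5 had estimates below 0, with a median of -0.20, and none passed; in unscaled values 3 lay below 0 and 5 below the median of all probes. Without METH array 5 the median was -0.11. Gpx1, the cytosolic peroxidase, lay at 8.62, 8.49, 8.69 and 8.51 with saline and at 8.52, 8.58, 8.51, 8.51 and 7.61 on the METH arrays. METH arrays 1 to 4 lay within the saline range and METH array 5 below it, and the log2 fold change of -0.23 ± 0.19 SE was -0.05 without it. Gpx4, which reduces lipid hydroperoxides in membranes, lay at 11.40, 11.34, 11.49 and 11.53 with saline and at 11.46, 11.36, 11.56, 11.58 and 10.82 with METH. METH array 5 alone lay below the saline arrays, and the log2 fold change was -0.08 ± 0.15 SE. That sign turned without METH array 5, where it was 0.05. The range of the class was -0.34 for Gpx8 to 0.03 for Gpx2.

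Each of the 5 peroxiredoxins had its lowest value on METH array 5. Prdx1, a cytosolic peroxiredoxin, lay at 11.02, 10.95, 11.07 and 10.89 with saline and at 10.79, 11.01, 10.97, 10.29 and 10.04 on the METH arrays. METH arrays 1, 4 and 5 lay below every saline array, and the log2 fold change was -0.36 ± 0.19 SE (limma, adjusted p = 0.524), or -0.22 without METH array 5. Prdx6, which is abundant in astrocytes, lay at 10.98, 11.06, 10.99 and 10.74 with saline and at 10.91, 11.04, 11.04, 10.86 and 10.34 with METH. METH array 5 alone lay below the saline range, and the log2 fold change was -0.10 ± 0.15 SE, or 0.02 without that array. The other members, Prdx2, Prdx3 and Prdx5, lay between -0.19 and 0.14. The class median was -0.16, and -0.05 without METH array 5. Of the 5 estimates 4 lay below 0, and in unscaled values 1 lay below 0 and 4 below the median of all probes.

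In the thioredoxin system 7 of 8 probes had estimates above 0, with a median of 0.08 and none past the threshold, and in unscaled values the same count lay above the median of all probes. Without METH array 5, 6 were above 0 and 2 below, with a median of 0.20. The 3 probes of Txn1, cytosolic thioredoxin, correlated at 0.952 to 0.969 over the 9 arrays. The first lay at 9.70, 9.78, 9.82 and 9.37 with saline and at 9.88, 9.90, 10.09, 9.65 and 9.19 with METH. The second lay at 11.46, 11.52, 11.34 and 10.87 with saline and at 11.49, 11.63, 11.74, 11.46 and 10.59 with METH. The third lay at 9.87, 9.91, 9.92 and 9.04 with saline and at 9.77, 10.03, 10.16, 9.67 and 8.85 with METH. All 3 were lowest on METH array 5 and, among saline arrays, on array 4. Their log2 fold changes were 0.07, 0.08 and 0.01, or 0.21, 0.28 and 0.23 without METH array 5. Txnrd1, the cytosolic reductase, lay at 6.73, 6.74, 6.72 and 7.54 with saline and at 7.47, 6.64, 7.22, 7.24 and 7.52 on the METH arrays. Saline arrays 1 to 3 lay close together and saline array 4 was the highest of all 9, with a log2 fold change of 0.28 ± 0.22 SE. It was 0.49 without saline array 4 and 0.43 without METH array 2. The mitochondrial reductase Txnrd2 had the least spread within groups of the 55 probes (SD 0.0845), and its log2 fold change was 0.17 ± 0.12 SE.

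Txnip, which binds and inhibits thioredoxin, lay at 9.80, 9.51, 9.88 and 9.61 with saline and at 9.17, 9.30, 9.38, 9.31 and 10.10 on the METH arrays. METH arrays 1 to 4 lay below every saline array and METH array 5 above them all. The log2 fold change was -0.24 ± 0.18 SE, and -0.40 without METH array 5, where it did not pass either (limma, adjusted p = 0.147). Thioredoxin domain and thioredoxin-like proteins, which include Txnl1, a partner of the proteasome, split into 3 estimates above 0 and 3 below. Txnl1 lay at 8.64, 8.36, 8.53 and 8.04 with saline and at 8.68, 9.08, 8.78, 8.56 and 8.35 with METH. METH arrays 1 to 3 lay above every saline array and the other two within their range. Its estimate was the highest of the class, 0.30 ± 0.17 SE (limma, adjusted p = 0.546), and 0.18 was the lowest value with an array left out.

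Mt3, the metallothionein of brain and the only matched gene of its class, lay at 12.44, 12.79, 13.00 and 12.53 with saline and at 12.43, 12.79, 12.90, 12.85 and 12.06 on the METH arrays. The groups overlapped, with a log2 fold change of -0.085 ± 0.19 SE. That sign turned without METH array 5, where it was 0.05.

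METH array 5 stood apart for the redox probes. It held the lowest of the 9 values for 30 of the 55 probes (54.5%), where it did so for 26.6% of all probes tested, and the next highest count among the redox probes was 5, on saline array 4. The median redox probe lay 0.44 below the saline mean on this array on the log2 scale, beside -0.02 for all probes, and between -0.05 and 0.12 on the other 4 METH arrays. Of the 55 probes 45 lay below the saline mean there, 81.8% against 51.8% of all probes. Saline array 4 went the same way to a smaller extent, with 40 of 55 below the saline mean (72.7% against 50% of all probes) and a redox median of -0.13. The classes were not alike on METH array 5. The peroxiredoxin median was -0.60, that of the cytosolic transferases -0.65 and that of the peroxidases -0.61. The median of glutathione synthesis and reduction was 0.63 and that of the dismutases with catalase -0.08, but members of both classes went both ways. Gclc stood at 1.13, Gsr at 0.63 and Gclm at -0.08. Sod2 stood at 0.24, Sod3 at 0.0023, Cat at -0.15 and Sod1 at -0.83. Without METH array 5, 28 redox probes had an estimate above 0 and 27 below (49.1% below, against 53.2% of all probes). The redox median was then 0.01 beside -0.02 over all probes, and 0 of the 55 passed, where 0.701% of all probes did.

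**Figure D3:**
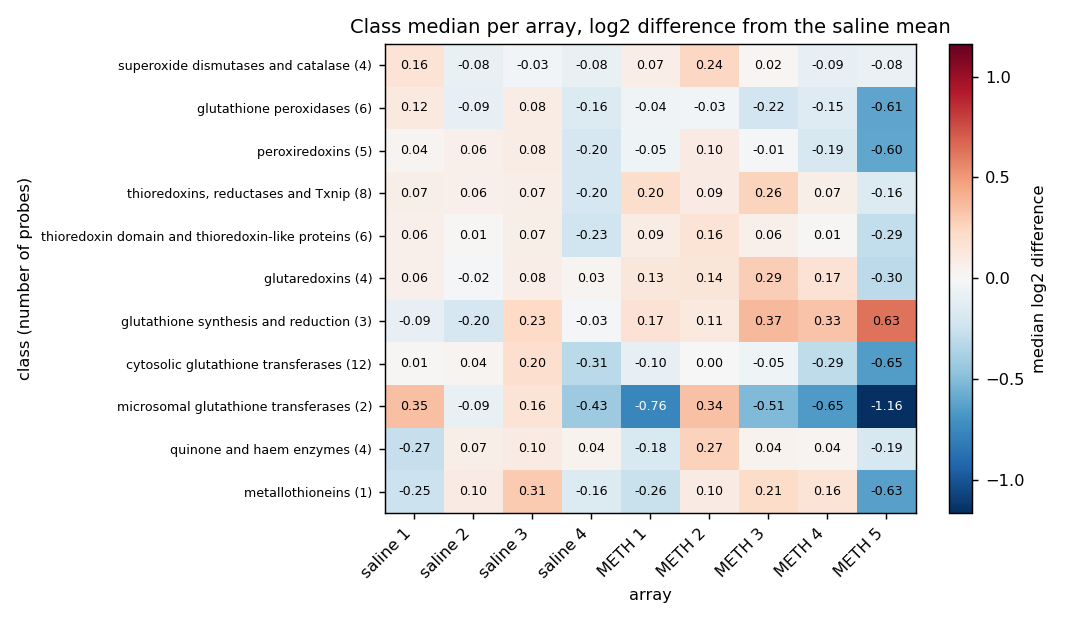
Median log2 difference from the saline mean on each array for the 11 classes of redox probes, with the number of probes in parentheses. The METH 5 column holds the lowest value of 7 classes and the highest of glutathione synthesis and reduction (0.63).

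Some lists of marker genes had their lowest summed intensity on METH array 5 and others did not. The part of these lists in the redox values was not tested. Summed deposited intensity of 5 blood genes measured was 1921 on METH array 5, 5427 to 9136 on the other METH arrays and 3790 to 8815 on saline arrays, with Alas2 and Hba-a2 never above background. For 15 genes of striatal projection neurons (16 probes) it was 12078 on METH array 5, 17867 to 27712 on the other METH arrays and 19433 to 26386 on saline arrays. For 8 microglial genes it was 1136 on METH array 5, 1688 to 2443 on the other METH arrays and 1608 to 1821 on saline arrays. The 10 astrocyte genes, all of them measured above background, summed to 26011 on METH array 5, within 24705 to 32866 on the other METH arrays and 25737 to 26665 on saline arrays. Single astrocyte genes went both ways on METH array 5. From the saline mean S100b stood at -0.85, Aldoc at -0.80, Slc1a3 at 0.70 and Aqp4 at 0.62, with a list median of 0.07. Between the groups, 2 of the 10 were lower and 0 higher at an unadjusted p under 0.05, and 0 passed (limma). For 10 oligodendrocyte genes the sum was 10351 on METH array 5, 9660 to 14031 on the other METH arrays and 9098 to 10386 on saline arrays. For 7 genes of cortical neurons the sums were 2710 on METH array 5, 2661 to 4097 on the other METH arrays and 2445 to 2764 on saline arrays. The 5 cortical genes that passed the detection filter had a median 2.04 above the saline mean on METH array 5 and 2.06 on METH array 4, with 0.64, -0.47 and 0.90 on METH arrays 1 to 3. Some lists differed between the groups on more than 1 array. Over the 15 striatal genes the median log2 fold change was -0.45, with 0 passing (limma). At an unadjusted p under 0.05, where 11% of all probes stood, there were 9 lower and 1 higher, Arpp21 at 0.63. The 5 cortical genes had a median log2 fold change of 1.02 and went both ways. Slc17a7 had 1.80, Neurod6 1.47, Fezf2 1.02 and Neurod2 0.60, while Lamp5 had -0.35. Slc17a7 was above background on 2 of 4 saline arrays and Neurod2 on 1 of 4, so the size of their estimates is uncertain. Summed intensity of 8 pan-neuronal genes was 13921 to 15241 with saline and 17898 to 26901 with METH, and these sums were not scaled between arrays. In normalized values the 8 genes had a median log2 fold change of 0.26 (range -0.06 to 0.49), with 0 passing (limma). Nefl, at 0.49, was the only 1 of the 8 with an unadjusted p under 0.05. The 4 endothelial genes tested had a median of -0.26 and went both ways. Sox18 was lower with METH (log2 fold change -0.66, limma, adjusted p = 0.0378). It was above background on 4 of 4 saline and 1 of 5 METH arrays, so the size of that difference is uncertain. Sox17 had -0.31, Cldn5 -0.22 and Esam 0.30, and these 3 endothelial genes did not pass. Their part in the redox values was not tested. In these dissected samples fewer cells of a type and less RNA per cell cannot be told apart.

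All 15 genes of striatal projection neurons on the array passed the detection filter. Mean deposited intensity per array was 164.3 to 231.4, and the share of probes above background was 41.5% to 47.3%, the highest being METH array 5. Of the 15 matched redox probes that were not analysed, 14 were above background on 0 of 9 arrays. These were probes of Gsta1, Gsta2, Gsta3, Gsta5, Gstm2, Gstm6, Gstm6l, Gstt3, Gpx5, Gpx6, Txndc2, Txndc8 and Txndc11 and a further probe of Gstp1. Just outside the detection limit, Gstm3 was above background on 2 arrays, with intensities of 14.3 to 37.2. Just inside it, Gsta4 was above background on 5 arrays, with intensities of 5.7 to 48.6, and Txnl4b on 6, with 2.8 to 32.7. Of the probes analysed, 49 were above background on all 9 arrays.

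Genes around these enzymes gave no call either. Of 7 Nrf2 pathway regulators none passed. An unadjusted p under 0.05 was held by 3 of the 7, a larger share than the 11% of all probes, in a list chosen with earlier results known. Of these, Mafk and Atf4 were higher with METH and Keap1 lower. Mafk, a small Maf partner of Nrf2, had the smallest p, with a log2 fold change of 0.67 ± 0.16 SE (limma, adjusted p = 0.116). Its METH arrays lay 0.63, 0.65, 0.58, 0.53 and 0.95 above the saline mean, and its saline arrays between -0.23 and 0.41. Keap1, which targets Nrf2 for degradation, had -0.37 ± 0.12 SE (limma, adjusted p = 0.271), and Nfe2l2, which encodes Nrf2, had -0.01 ± 0.15 SE. Atf4, a transcription factor of amino acid stress, had 0.49 ± 0.13 SE (limma, adjusted p = 0.16).

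None of 10 genes of glutathione supply, 8 of NADPH supply, 14 of oxidant repair and 7 of oxidant production passed. The smallest adjusted p in these lists (limma) were 0.543 for Slc3a2, 0.451 for Me1, 0.175 for Oxr1 and 0.545 for Rac1. Oxr1, an oxidation resistance gene, had a log2 fold change of 0.67 ± 0.18 SE, with METH array 2 at 0.05 and the other METH arrays at 0.68 to 0.97 above the saline mean. Among 6 genes of metal handling, which include the redox gene Mt3 given above, none passed. Mt1, a widely expressed metallothionein, had a log2 fold change of -0.76 ± 0.22 SE (limma, adjusted p = 0.213). Its METH arrays lay at -1.04, -0.08, -0.73, -0.52 and -1.43 from the saline mean, and METH array 2 lay within the range of the saline arrays, -0.23 to 0.15.

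**Figure D4:**
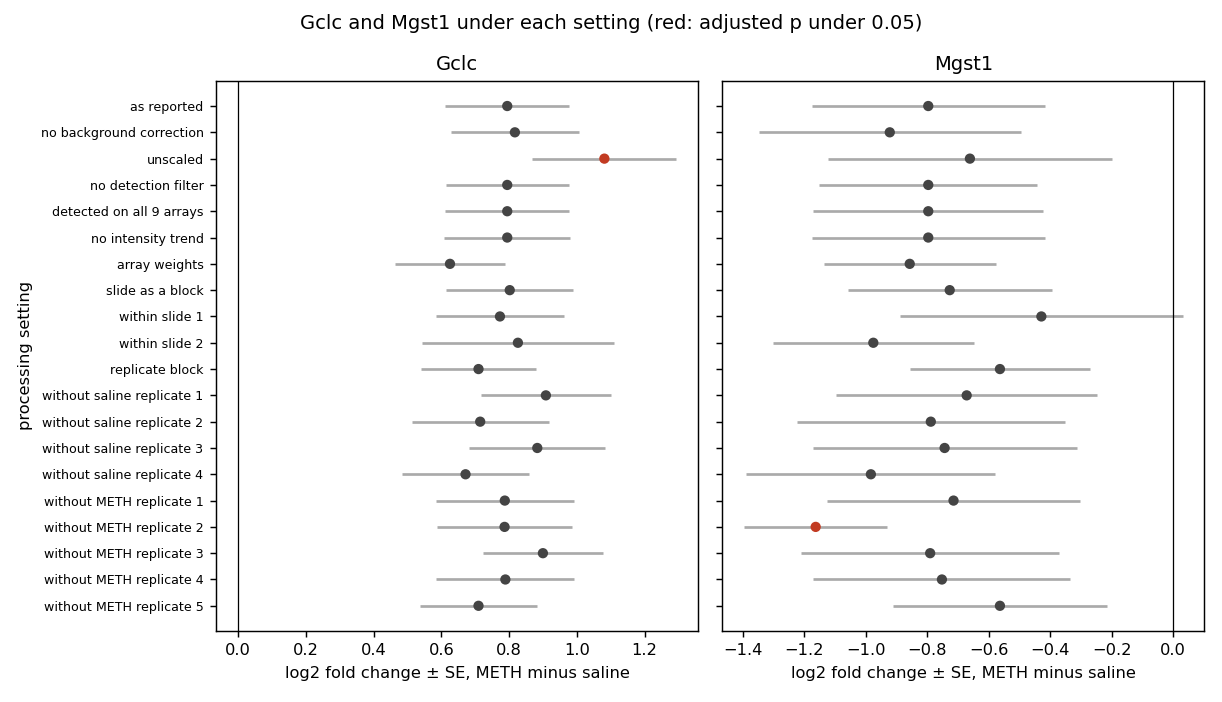
Log2 fold change ± SE of Gclc and Mgst1, as reported and under 19 other settings, red where the adjusted p was under 0.05. Gclc lies between 0.63 and 1.08 and passed only in unscaled values, and Mgst1 lies between -1.16 and -0.43 and passed only without METH replicate 2.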

How the data were processed

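Rat nucleus accumbens RNA was hybridised to Illumina RatRef-12 beadchips. Per the submitters' processing notes, the deposited intensity values came from BeadStudio, whose version is not given in the sources used here. Values below 0 and unequal medians show that background had been subtracted from the deposited intensities, with no scaling across arrays. The deposited detection p-values were used to judge signal over background. The second deposited table held the same intensities (largest difference 0).

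The 9 arrays, on 2 slides, went through neqc of limma 3.58.1 under R 4.3.3. It estimated background by way of detection p, used 16 as offset, and quantile-normalized the log2 values. Probes with a detection p under 0.05 on 4 or more arrays, 9987 in all, were fitted with lmFit and eBayes (trended prior, two-sided test), and Benjamini-Hochberg adjustment ran over all of them. A log2 fold change is METH minus saline on this scale, where the offset understates differences of dim probes. The number of arrays limits the precision. On simulated data of 9987 probes for this comparison, 25.4% of log2 changes of 0.5, 79.1% of 1 and 98.5% of 2 were called. The simulated noise was independent, at each probe's own SD, with no shift shared by the probes of an array. The median SD within groups was 0.30 for redox probes and 0.23 for all probes tested, so these shares may overstate recovery among redox probes.

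Gene names came from the platform annotation, and the Entrez IDs of all 70 matched probes were found in RefSeq, where 0 had another symbol. The annotation names 1 gene for 13793 probes and none for 8730. The members, the gene lists and the rule for named genes were chosen with earlier results of these data known. Full values were given for the 12 redox probes with the smallest p and for a fixed set of main enzymes. In that set no probe carried the symbol Mt1a, and a probe named Mt1 was given with the genes of metal handling. Fold changes of lists used the brightest probe of each gene. Summed intensities also took genes that did not pass the detection filter, and 16 probes for the 15 striatal genes.

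Alternatives were no further background correction or unscaled values (intensities under 16 set to 16), no detection filter or detection on all 9 arrays, an untrended prior, array weights, a block for slide or for replicate number, each slide alone, and leaving out each array. All normalized values and the probe set were kept when arrays were left out.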

Additional observations from a re-analysis of the deposited data

Results flagged for a closer look

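For 10 of 110 groups of redox values (9.09%, where chance gives about 1 in 20 and all probes tested gave 7.13%), 1 array lay apart from the rest of its group by more than Dixon's limit on the normalized log2 scale. METH array 5 was that array in 6 of them. It stood low for Gpx1 (7.61, the other METH arrays at 8.51 to 8.58), Gstk1 (7.34, others 8.02 to 8.23), Prdx6 (10.34, others 10.86 to 11.04), Txnl4b (4.78, others 5.32 to 5.49) and the second Txn1 probe (10.59, others 11.46 to 11.74), and high for Txnip (10.10, others 9.17 to 9.38). Saline array 4 was that array in the other 4. It stood low for Glrx3 (8.92, others 9.62 to 9.73) and the third Txn1 probe (9.04, others 9.87 to 9.92), and high for Gsr (7.23, others 6.59 to 6.70) and Txnrd1 (7.54, others 6.72 to 6.74).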

How the results depend on the processing

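No redox probe passed under the alternatives run, except 1 in unscaled values (Gclc) and 1 without METH array 2 (Mgst1). The range with single arrays left out was 0 to 1. Over all probes the count of 52 was 225 in unscaled values, 251 with array weights, 16 within slide 2, 82 (0.821%) with the replicate block and 31 to 250 with single arrays left out. The redox median was 0.134 in unscaled values, where all probes had a median of 0.23, and -0.13 to 0.01 with single arrays left out.

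Of 29 named probes, 15 kept their sign under all alternatives run. In unscaled values the turned estimates were Gpx1 0.023, Gpx4 0.162, Mt3 0.0911, Prdx6 0.15, Sod1 0.115, Txnip 0.0114 and the first Gstp1 probe 0.0413, each below the median of all probes there. With array weights they were Gpx4 0.0332 and Sod2 -0.0082. Within slide 1 they were Gpx4 0.0389 and Hmox2 -0.0308, and within slide 2 Gclm -0.146 and Cat -0.0096. The replicate block, which leaves METH array 5 without a partner, gave Gpx4 0.0494, Mt3 0.0515, Prdx6 0.0198 and Sod1 0.0765. Same-numbered arrays correlated at 0.0721, 0.0953, 0.0801 and 0.247 in their deviations from the group means, so the numbers were not taken to pair them, and the block changed no call of a redox probe. With single arrays left out, the ranges that crossed 0 were Cat -0.0257 to 0.133, Gclm -0.0337 to 0.107, Gpx4 -0.141 to 0.0494, Hmox2 -0.0891 to 0.102, Mt3 -0.167 to 0.0515, Prdx6 -0.171 to 0.0198, Sod1 -0.242 to 0.0765, Sod2 -0.0004 to 0.118 and the Txn1 probes -0.0288 to 0.211, -0.059 to 0.281 and -0.201 to 0.227. The causes were not tested.

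Signal over background limits Gsta4, Mgst2, Nqo2, Gstt1, Gpx7 and Txnl4b, each not above background on at least 1 array. Gsta4 and Mgst2 therefore have no value with detection required on all 9 arrays.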
